A study of Mus musculus with 8 samples.

Results

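Genes of the primary cilium and of intraflagellar transport were examined in mouse molar tooth germs after injection of an agent against the Hedgehog ligand Shh or against Smo. The set holds 40 genes named by function, and every probe set that the platform annotation assigns to exactly 1 of them was taken. Of the 40 genes, 37 had such a probe set, with 61 probe sets in all, out of 18193 genes and 34945 single-gene probe sets on the array. Arl6, Arl13b and Rpgrip1l were not analysed here. After a filter on weak signals 36 genes were tested, of 13008 on the whole array.

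Tooth germs were dissected from the mandibles of ICR embryos, an outbred stock, 24 h after a single intraperitoneal injection of the mother at embryonic day 14. The 5E1 group received a monoclonal IgG1 against Shh at 10 mg/kg, and the 40-1a group received a monoclonal IgG1 against β-galactosidase at the same 10 mg/kg. The cyclopamine group received this Smo antagonist at 10 mg/kg, and the PBS group received 1 ml of phosphate buffered saline. Each group had 2 arrays, called biological replicates in the labels. The labels do not say whether replicates came from separate litters or how many germs were pooled, so the p-values cover only the spread between these tissue samples, and the vehicle of cyclopamine is not stated. The small number of arrays limits the precision.

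The primary cilium is a single, non-motile antenna that most vertebrate cells raise from a centriole, the basal body. It is built by intraflagellar transport, in which kinesin-II carries trains of IFT-B and IFT-A proteins to the tip and dynein-2 returns them to the base, while the BBSome and the transition zone sort which membrane proteins enter and leave. In vertebrates Hedgehog signalling runs through it: Ptch1 leaves the cilium when Shh binds, Smo enters, and Gli proteins are processed there. In mice, loss of function of cilium genes such as Ift88 or Evc alters tooth number or shape, and in people EVC and EVC2 are mutated in Ellis-van Creveld syndrome, which includes dental defects.

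Many cilium genes are targets of RFX transcription factors, which bind the X-box, a pair of inverted half-sites. The promoters that carry a full match are shown because they are a sequence feature of these genes that played no part in choosing them. Promoters, from 250 bases before to 50 after the start site (RefSeq, GRCm38.p6), were at hand for 35 of the 40 genes. The letters GTTNCC, then a spacer of 0 to 3 bases, then GGNAAC, which read the same on both strands, occurred in 4 of 35 promoters, or 11.4% (95% exact Clopper-Pearson interval 3.20 to 26.7). Among all 27025 genes with a promoter the share was 253, or 0.936%. With a spacer of exactly 2 the shares were 3 of 35 (8.57%) and 143 of 27025 (0.529%). A single half-site GTTNCC on either strand, which is contained in every full match, was found in 29 of 35 promoters (82.9%) and in 13187 of 27025 (48.8%). The full matches stand in Bbs7 at chr3:36613467-36613540 (minus strand), Mks1 at chr11:87853161-87853214 (plus strand), Ift57 at chr16:49699204-49699276 (plus strand) and Tctn1 at chr5:122264411-122264440 (minus strand). Capitals mark the match in the sequences, written 5′ to 3′ on the strand of the gene.
Bbs7: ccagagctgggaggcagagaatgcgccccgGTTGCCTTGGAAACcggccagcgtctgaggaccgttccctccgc
Mks1: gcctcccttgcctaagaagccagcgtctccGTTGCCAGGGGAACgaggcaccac
Ift57: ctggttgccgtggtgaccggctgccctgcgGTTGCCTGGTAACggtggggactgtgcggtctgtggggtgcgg
Tctn1: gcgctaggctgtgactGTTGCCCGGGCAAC
Counted from the start site, the match begins at -121 in Bbs7, at -24 in Mks1, at -60 in Ift57 and at 37 in Tctn1. A match is a description of letters and not a measured binding site, and no match says only that these letters are not in this window.

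For scale, feedback genes of the Hedgehog pathway differed several-fold after 5E1, although neither of the pair given here passed over all genes in the fit without a replicate block (limma adjusted p = 0.969 for Ptch1). Ptch1, the Shh receptor, had signals of 2122 and 1553 after 5E1, against 11322 and 7180 after 40-1a, a log2 difference of -2.31 (SE 0.30). Gli1 had signals of 240 and 348 after 5E1, against 1196 and 1586 after 40-1a, a difference of -2.22 (SE 0.40). For cyclopamine minus PBS the 95% interval was -0.97 to 0.44 for Ptch1 and -0.85 to 1.01 for Gli1. Both intervals include 0, so these 2 genes do not show whether Smo was blocked in the cyclopamine group. Without cyclopamine replicate 1 the differences were -0.64 and -0.34. That array stood apart from the other 7. Its 18S signal was 2548, against 52.9 to 447.6, and its 3′ to 5′ signal ratio was 0.886 for Gapdh (0.673 to 0.764 on the others). For the comparisons that include cyclopamine, many of the values without this array are given beside the main ones.

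The cilium genes as a set varied little between arrays. For each gene the deviation of its log2 value from its own mean over 8 arrays was taken, and the median over the 36 genes ran from -0.08 to 0.04 on 7 arrays and was 0.15 on cyclopamine replicate 1. On that array 29 of the 36 genes lay above their own mean, as did 7577 of all 13008 genes, whose median deviation was 0.06. Markers of both tissues of a tooth germ were detected, with 14 of 14 dental epithelium and 15 of 15 dental mesenchyme genes with a probe set above the filter. Most lists of cell type markers had wider ranges over the same arrays, but they were chosen with earlier results known and are no neutral background. The median deviation of dental mesenchyme genes ran from -1.19 to 0.41, that of skeletal muscle genes from -1.61 to 1.69, that of suprabasal oral epithelium genes from -1.23 to 1.17 and that of endothelial genes from -0.56 to 0.43. Dental epithelium genes ran from -0.33 to 0.40, and mitosis genes, at -0.11 to 0.06, had the narrowest range of these lists. On replicate 2 of 5E1, 40-1a and cyclopamine the epithelium median was 0.40, 0.32 and 0.37 and the mesenchyme median -1.19, -0.29 and -0.53. On PBS replicate 2 they were -0.17 and 0.41, and every comparison with PBS includes that array. The germs are whole tissue, so fewer cells of a type and less RNA per cell cannot be told apart.

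**Figure D1:**
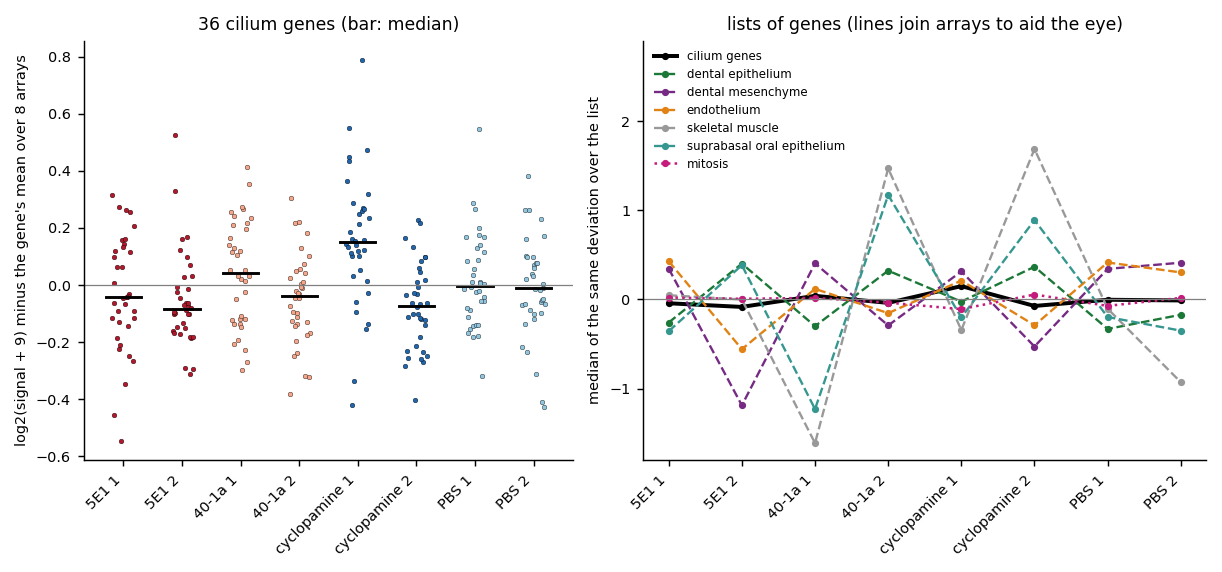
Left, log2(signal + 9) of each of the 36 tested cilium genes minus its mean over the 8 arrays, with 1 point per gene and the median as a bar. Right, the median of the same deviation for the cilium genes and for lists of cell type and mitosis markers on each array; the cilium line stays between -0.08 and 0.15, and the muscle line runs from -1.61 to 1.69.

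The 36 tested genes, from motors and trains to the transition zone, were above the filter level, a signal of 60.3, in the mean of their brightest probe set. In the 4 control arrays (40-1a and PBS) the signals averaged 3695 ± 515 (SD, n = 4) for Arl3, a GTPase that releases lipid-anchored cargo, 2108 ± 89.3 for Kifap3, the adaptor of kinesin-II, and 1833 ± 211 for Ift46. At the low end were Bbs2 at 174 ± 22.0, Wdr19 at 175 ± 35.4 and Bbs9 at 203 ± 32.5. Signals of different probe sets depend on their probes, so these values do not rank transcript amounts. Tmem67, a transition zone membrane protein, had its only probe set just below the filter and was not tested. Its signals were 61.1 and 54.4 after 5E1, 60.4 and 72.5 after 40-1a, 22.1 and 59.9 after cyclopamine, and 53.2 and 78.5 after PBS.

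Across the 8 arrays the median gene of the set spanned 0.56 on the log2 scale from its lowest to its highest array, against 0.70 for all genes tested. Its residual SD within groups was 0.21, against 0.25. The steadiest was Dync2li1, the light intermediate chain of dynein-2. Its signals were 1134 and 1132 after 5E1, 1144 and 1269 after 40-1a, 1108 and 1253 after cyclopamine, and 1172 and 1266 after PBS, a 1.14-fold span. Ift43 (0.26), Ift81 (0.27), Mks1 (0.28) and Kif3a (0.33) had the next smallest log2 spans. Ift81, a subunit that helps bind tubulin, had 1185 and 1211 after 5E1, 1317 and 1287 after 40-1a, 1425 and 1307 after cyclopamine, and 1379 and 1286 after PBS. Kif3a, a motor subunit of kinesin-II, had 708 and 589 after 5E1, 693 and 644 after 40-1a, 568 and 654 after cyclopamine, and 563 and 660 after PBS. In Ift81 the 5E1 arrays were the lowest of all 8, and in Kif3a the groups overlapped. These spans are those of the brightest probe sets. Another Kif3a probe set, with signals of 434 to 889, spanned 2.03-fold. Evc, the most variable, spanned 2.52-fold, followed by Cc2d2a (log2 span 0.96), Bbs4 (0.87), Bbs2 (0.84) and Evc2 (0.79).

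Evc and Evc2 encode partner proteins of a complex near the ciliary base that binds Smo, and their genes lie head to head on chromosome 5 with start sites 1597 bases apart (GRCm38.p6). Evc had signals of 382 and 493 after 5E1, 517 and 563 after 40-1a, 977 and 559 after cyclopamine, and 449 and 735 after PBS. Evc2 had 679 and 548 after 5E1, 627 and 491 after 40-1a, 855 and 540 after cyclopamine, and 555 and 688 after PBS. Both genes had their highest signal on cyclopamine replicate 1, and in each the 2 arrays of the cyclopamine group differed more than the group means did.

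The comparison of 5E1 with 40-1a asks what neutralising the Shh protein does to these transcripts when both groups received an antibody. No cilium gene passed the test, and the differences were small beside those of Ptch1 and Gli1. The 36 genes lay between -0.44 (Tctn2) and 0.31 (Bbs2) on the log2 scale, at most 1.35-fold, with a median of -0.03 (all genes -0.01). Of them 16 were above 0 and 20 below, or 44.4% above, where 46.7% of all genes were above 0. With each array centred on its median the split was 23 above and 13 below (63.9%, with 64.5% of all genes).

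Limma called 0 of 36 cilium genes at an adjusted p of 0.05, a background of 0% of all 13008 genes. At an unadjusted p under 0.05 there were 0 of 36 cilium genes and 159 of all genes (1.22%). With so small a share of all genes, 0 of 36 does not show that the cilium genes were unchanged. The 95% intervals of 34 of the 36 genes lay within 2-fold either way, as did those of 71.2% of all genes, the exceptions being Bbs2 and Evc. Both 5E1 arrays were below both 40-1a arrays for 9 genes (25% of the 36), where 10.8% of all genes were so placed. These were Ift52, Ift81, Ift88, Dync2h1, Dync2li1, Bbs1, Tulp3, Tctn2 and Evc, with differences of 1.06-fold to 1.35-fold. The count was 3 with median centring (5.70% of all genes) and 6 with the mean of each gene's probe sets (12%). It was 9 with quantile normalisation (9.92%) and 10 without x and s probe sets (10.8%), types that may also bind related transcripts. Both 5E1 arrays were above both 40-1a arrays for Kifap3 and Bbs2, 2 genes (5.56%), against 8.66% of all genes. Among tissue markers 13 of 15 dental mesenchyme genes were below 0 in this comparison, with summed signals of 114151 and 55317 after 5E1, against 108433 and 72324 after 40-1a, and 7 of 14 dental epithelium genes were below 0. Their part in the cilium values was not tested.

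IFT-B, the complex that carries cargo outward, had 10 genes tested, of which 7 were above 0 and 3 below (median 0.05), none passing. Ift88, a core subunit needed to build a cilium, had signals of 376 and 425 after 5E1, against 551 and 452 after 40-1a. Both 5E1 arrays were lower, by a log2 value of -0.31 (SE 0.20, 95% interval -0.78 to 0.15). Ift52, another core subunit, had 878 and 1023 after 5E1, against 1106 and 1196 after 40-1a, again without overlap (-0.28, SE 0.16, 95% interval -0.65 to 0.10). With each array left out in turn Ift88 ran from -0.45 to -0.18 and Ift52 from -0.39 to -0.17. Ift172, a large peripheral subunit, had 575 and 657 after 5E1, against 507 and 605 after 40-1a, and the arrays overlapped (0.15, SE 0.20, and 0.02 without 40-1a replicate 1). Ift27, a small GTPase that takes part in exporting BBSome cargo, was at 0.12 (SE 0.21), with 746 and 894 after 5E1 and 802 and 703 after 40-1a. Without 5E1 replicate 2 it was at -0.01, and its probe set is of a type that may also bind related transcripts.

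IFT-A, which serves the return journey and brings membrane receptors in, had all 6 genes tested below 0 in their brightest probe sets. They ran from -0.13 to -0.04, and each estimate was within 1 SE of 0. With median centring 4 of the 6 were above 0. Their other probe sets were at -0.66 (Wdr19, SE 0.51), -0.29 (Ift122, SE 0.26), -0.19 (Ttc21b, SE 0.46) and 0.02 (Wdr35, SE 0.68). Among the motors, Kifap3 had 2397 and 2107 after 5E1, against 2030 and 2044 after 40-1a, so both 5E1 arrays were higher (0.14, SE 0.16, 95% interval -0.22 to 0.51). With each array left out in turn it ran from 0.05 to 0.23. The motor subunits Kif3a (-0.05, SE 0.20) and Kif3b (0.01, SE 0.27) lay close to 0 in their brightest probe sets. The other Kif3b probe sets disagreed, at -0.19, 0.42 and -0.41. Dync2h1, the heavy chain of dynein-2, had 224 and 260 after 5E1, against 291 and 279 after 40-1a, without overlap (-0.23, SE 0.28, and -0.33 to -0.13 with each array left out).

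BBSome genes split 4 above 0 and 2 below. Bbs1 had signals of 176 and 191 after 5E1, against 272 and 209 after 40-1a, with both 5E1 arrays lower (-0.36, SE 0.26, 95% interval -0.97 to 0.25). Bbs2 had 223 and 199 after 5E1, against 192 and 146 after 40-1a, with both 5E1 arrays higher (0.31, SE 0.33, 95% interval -0.46 to 1.09). With each array left out in turn Bbs1 ran from -0.54 to -0.18 and Bbs2 from 0.13 to 0.50. The 2 subunits of the same complex had opposite signs, and neither differed beyond the error of the fit. Bbs4 had 276 and 513 after 5E1, against 308 and 321 after 40-1a, so its value of 0.25 (SE 0.31) came from 1 array and was -0.18 without 5E1 replicate 2. Of the cargo carriers, Tulp3, which links IFT-A to membrane receptors, had 1604 and 1566 after 5E1 and 1613 and 1750 after 40-1a (-0.08, SE 0.17). Arl3 was at -0.01 (SE 0.21).

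The transition zone held the gene with the smallest p of the set. Tctn2, a tectonic protein of the gate at the ciliary base, had signals of 234 and 288 after 5E1, against 332 and 380 after 40-1a. Both 5E1 arrays were the lowest of all 8, and the log2 difference was -0.44 (SE 0.23, 95% interval -0.96 to 0.09, limma unadjusted p = 0.0909, adjusted p = 1.00 over all genes). Its relative Tctn1 had 287 and 293 after 5E1 and 275 and 414 after 40-1a (-0.21, SE 0.27), with overlap, and was at 0.07 without 40-1a replicate 2. Mks1 and Cc2d2a, of the same gate, were at -0.01 (SE 0.20) and 0.02 (SE 0.36). Ofd1, a protein of the distal centriole, was at 0.20 (SE 0.24), with 427 and 597 after 5E1 and 426 and 449 after 40-1a, and at -0.03 without 5E1 replicate 2. For Evc, whose signals are given above, the difference was -0.31 (SE 0.33, 95% interval -1.08 to 0.46), and it ran from -0.49 to -0.13 with each array left out in turn. Its second probe set had the opposite sign, at 0.19 (SE 0.52), with 253 and 131 after 5E1 and 102 and 246 after 40-1a.

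**Figure D2:**
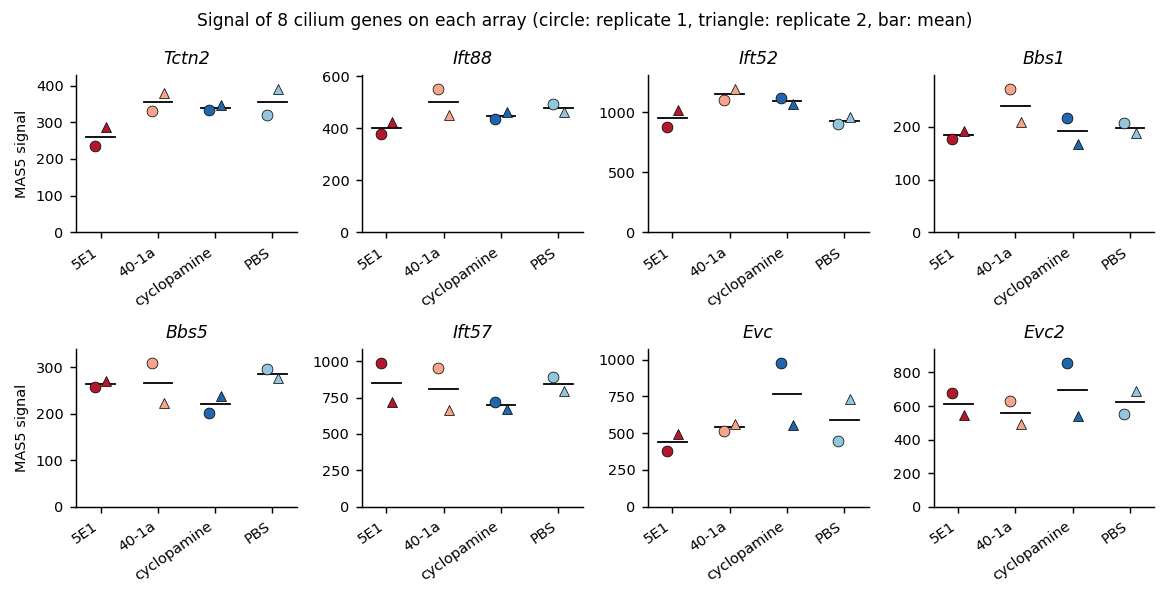
Signal of 8 cilium genes on each array, by group, on a linear axis from 0; circles are replicate 1, triangles replicate 2 and bars the mean of 2 arrays. The 5E1 points of Tctn2 (234 and 288) are below the other 6, and the high cyclopamine circles of Evc (977) and Evc2 (855) are the array that stands apart.

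The comparison of cyclopamine with PBS asks the same of an antagonist of Smo, which signals from the cilium. A fall of Ptch1 and Gli1 was not established in this comparison. No cilium gene passed the test. Values ran from -0.37 (Bbs5) to 0.36 (Evc), at most 1.29-fold, with a median of 0.05 (all genes 0.02), and 22 were above 0 and 14 below (61.1%, with 53.1% of all genes). Median centring gave 32 above and 4 below (88.9%, with 70.4%), quantile normalisation 26 and 10 (72.2%, with 57.0%), and the mean of probe sets 18 and 18 (50.0%, with 45.3%). The median was -0.08 without cyclopamine replicate 1 and 0.16 without cyclopamine replicate 2, so its sign rested on single arrays. Without cyclopamine replicate 1 the split was 11 above and 25 below, and 15 of the 36 genes changed sign.

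Limma called 0 of the 36 (0% of all genes), and at an unadjusted p under 0.05 there were 0 of 36 and 205 of all genes (1.58%). The intervals of 35 genes lay within 2-fold either way (66.6% of all genes), Evc being the exception. Both cyclopamine arrays were above both PBS arrays for Ift20, Ift52, Ift172, Ttc21b and Mks1, or 13.9% of the set against 17.8% of all genes. They were below for Ift57, Ift88 and Bbs5, or 8.33% against 14.4%. Without cyclopamine replicate 1 the remaining array was above both PBS arrays for 6 genes (33.0% of all genes so placed) and below both for 16 (34.1%). In this comparison the tissue markers differed too: 14 of 14 dental epithelium and 12 of 12 muscle genes were above 0 after cyclopamine, and 14 of 15 dental mesenchyme genes were below. Summed signals were 83584 and 106436 after cyclopamine, against 64752 and 77058 after PBS, for the epithelium list, and 98626 and 73174 after cyclopamine, against 108856 and 99137 after PBS, for the mesenchyme list. The muscle list summed to 3586 and 16590 after cyclopamine, against 5923 and 2679 after PBS, so the lower cyclopamine sum lay between the PBS sums. The part of tissue make-up in the cilium values was not tested.

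By role, IFT-B split 6 above 0 and 4 below, and 3 above and 7 below without cyclopamine replicate 1. Ift52 had 1120 and 1071 after cyclopamine, against 905 and 959 after PBS, without overlap (0.23, SE 0.16, 95% interval -0.15 to 0.61). This sign is opposite to that after 5E1. Ift20, a subunit that also sits at the Golgi, had 643 and 746 after cyclopamine, against 638 and 540 after PBS (0.24, SE 0.23). It was at 0.34 without cyclopamine replicate 1. Ift57, one of the genes with a full X-box match, had 720 and 671 after cyclopamine, against 890 and 793 after PBS, with both cyclopamine arrays lower (-0.27, SE 0.24, 95% interval -0.82 to 0.28). With each array left out in turn Ift52 ran from 0.19 to 0.27 and Ift57 from -0.35 to -0.19. Ift80 (-0.19, SE 0.25) and Ift88 (-0.09, SE 0.20) were also below 0. Ift80 was at -0.41 without cyclopamine replicate 1 and at 0.02 without cyclopamine replicate 2. Ift88 was at -0.05 without cyclopamine replicate 1 and at 0.04 with median centring.

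Among the IFT-A genes 4 were above 0 and 2 below, and 2 above and 4 below without cyclopamine replicate 1. The value farthest from 0 was that of Ift140, with 1355 and 849 after cyclopamine, against 837 and 988 after PBS (0.24, SE 0.24). Its cyclopamine arrays differed by more than the groups did, and without cyclopamine replicate 1 it was at -0.10. Ttc21b, another IFT-A subunit, had 634 and 609 after cyclopamine, against 565 and 543 after PBS, without overlap, and its estimate of 0.16 was within 1 SE of 0. It was at 0.14 without cyclopamine replicate 1. The kinesin-II and dynein-2 genes lay between -0.10 (Kif3b) and 0.14 (Kifap3). Without cyclopamine replicate 1 all but Kif3a of these 5 genes changed sign, with Kif3b at 0.22, Dync2h1 at -0.24, against 0.12 with the array, and Kifap3 at -0.01. These values are from the brightest probe sets. The other Kif3a probe sets were at -0.61 (SE 0.24), -0.28 and -0.08. The first of them read 434 and 551 after cyclopamine, against 889 and 631 after PBS.

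Bbs5, a BBSome subunit that binds membrane lipids, had the smallest p of the set. Its signals were 201 and 239 after cyclopamine, against 296 and 276 after PBS, with no overlap (-0.37, SE 0.25, 95% interval -0.94 to 0.20, limma unadjusted p = 0.175, adjusted p = 0.983 over all genes). The other 5 BBSome genes lay between -0.05 (Bbs1) and 0.11 (Bbs9). Without cyclopamine replicate 1 Bbs5 was at -0.25, and the others ran from -0.35 (Bbs2, at 0.07 with the array) to 0.14 (Bbs9), with Bbs1 at -0.23 and Bbs4 at -0.14. Arl3 had 4736 and 3599 after cyclopamine, against 3649 and 3494 after PBS, and its value of 0.21 (SE 0.21) was 0.01 without cyclopamine replicate 1.

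In the transition zone Mks1, which carries a full X-box match, had 403 and 400 after cyclopamine, against 350 and 347 after PBS. The 2 arrays of each group were close and the groups did not overlap (0.20, SE 0.20, 95% interval -0.27 to 0.66). Mks1 was at 0.19 without cyclopamine replicate 1. Of the other genes with the match, Ift57 had no overlap with the opposite sign, and the groups overlapped for Bbs7 (-0.04, SE 0.24) and Tctn1 (0.06, SE 0.27). Bbs7 was at -0.22 and Tctn1 at -0.10 without cyclopamine replicate 1. Tctn2 was at -0.05 (SE 0.23), and at -0.02 without that array. Cc2d2a had 388 and 368 after cyclopamine, against 581 and 295 after PBS (-0.13, SE 0.36). It was at 0.35 without PBS replicate 1 and at -0.17 without cyclopamine replicate 1. Ofd1 was at -0.11 (SE 0.24), at -0.32 without cyclopamine replicate 1 and at 0.09 without cyclopamine replicate 2. For Evc the difference was 0.36 (SE 0.33, 95% interval -0.41 to 1.13), and -0.04 without cyclopamine replicate 1.

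**Figure D3:**
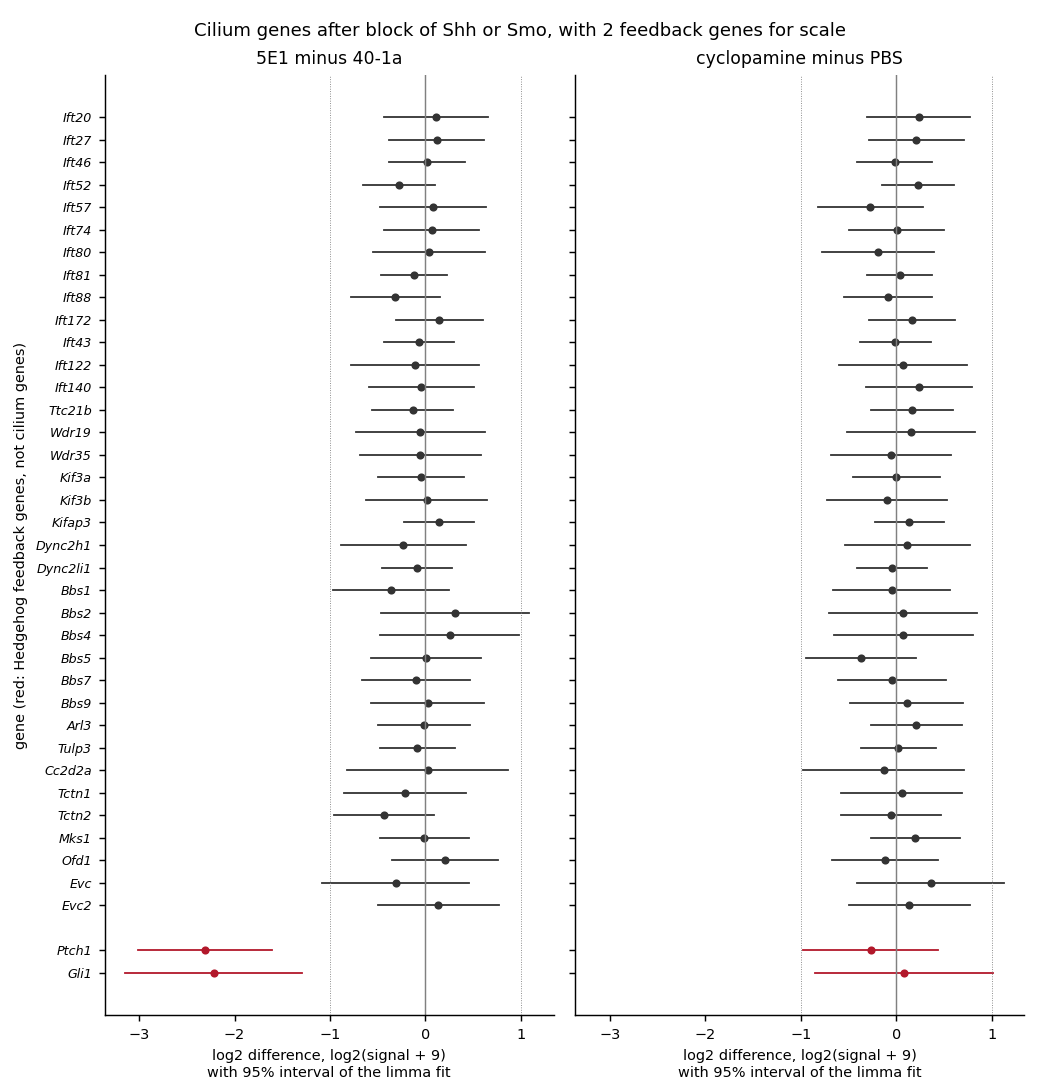
Log2 difference of each tested cilium gene, by role, for 5E1 minus 40-1a (left) and cyclopamine minus PBS (right), with the 95% interval of the limma fit; dotted lines mark a 2-fold difference and red points are Ptch1 and Gli1. Every cilium interval includes 0, and the 2 feedback genes stand at -2.31 and -2.22 on the left.

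Whether the 5E1 difference and the cyclopamine difference were themselves unequal was fitted directly, and no cilium gene passed (0% of all genes). At an unadjusted p under 0.05 there were 0 of 36 and 187 of all genes (1.44%). The estimates ran from -0.67 (Evc, SE 0.47) to 0.38 (Bbs5, SE 0.35). Evc was at -0.27 and Bbs5 at 0.26 without cyclopamine replicate 1, and the range was -0.48 (Ift52) to 0.66 (Bbs2). Ift52, with opposite signs in its 2 comparisons, had the smallest p (-0.51, SE 0.23, 95% interval -1.04 to 0.03, limma unadjusted p = 0.0594). Tctn2 was at -0.38 (SE 0.32), Ift57 at 0.35 (SE 0.34) and Ofd1 at 0.32 (SE 0.34). Without that array they were at -0.42, 0.40 and 0.53. These intervals are wide: 19 of 36 lay within 2-fold either way, with 41.2% of all genes.

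Averaged over both blocking agents and both controls, with 4 arrays a side, the set gave its tightest estimates. All 36 lay between -0.25 and 0.19, all 36 intervals lay within 2-fold either way (87% of all genes), and limma called 0 of 36 (0% of all genes). There were 0 of 36 cilium genes and 159 of all genes (1.22%) at an unadjusted p under 0.05. No cilium gene had the blocking agents' 4 arrays all on 1 side of the controls' 4, a placing that 1.37% of all genes had. Tctn2 was at -0.25 (SE 0.16), Bbs1 at -0.21 (SE 0.19) and Ift88 at -0.20 (SE 0.14). On the other side Ift27 was at 0.16 (SE 0.15), Ift172 at 0.16 (SE 0.14) and Kifap3 at 0.14 (SE 0.11). Without cyclopamine replicate 1 Ift27 was at 0.04, Ift172 at 0.09 and Kifap3 at 0.07, Tctn2 was at -0.23, Bbs1 at -0.29 and Ift88 at -0.18, and the 36 genes ran from -0.29 to 0.23.

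The remaining comparisons share arrays with those above, so their values are given side by side only. For 5E1 minus PBS limma called 0 of 36 (0% of all genes, with 0 of 36 and 1.48% of all genes at an unadjusted p under 0.05), and the range was -0.43 to 0.23. Tctn2 had 234 and 288 after 5E1, against 319 and 391 after PBS (-0.43, SE 0.23, 95% interval -0.96 to 0.09), which is close to its value against 40-1a. Ift88 was at -0.25 (SE 0.20) and Tulp3 at -0.21 (SE 0.17), both without overlap. Above 0 were Bbs2 (0.23, SE 0.33), Ift20 (0.17, SE 0.23) and Ift172 (0.14, SE 0.20). No overlap was found for 7 genes below (19.4%, with 12.4% of all genes) and 2 above (5.56%, with 9.97%). Tissue markers differed as well, with 14 of 14 dental epithelium genes above 0 and 15 of 15 dental mesenchyme genes below (median -0.82). The mesenchyme list summed to 114151 and 55317 after 5E1, against 108856 and 99137 after PBS, and the epithelium list to 65812 and 109869 after 5E1, against 64752 and 77058 after PBS. Their part in the cilium values was not tested.

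Between the control injections, 40-1a and PBS, limma also called 0 of 36 (0% of all genes, with 0 of 36 and 0.677% of all genes at an unadjusted p under 0.05). All 36 intervals lay within 2-fold either way, where 71.8% of all genes did. Ift52 had 1106 and 1196 after 40-1a, against 905 and 959 after PBS (0.30, SE 0.16, 95% interval -0.08 to 0.68). This difference between the controls is as large as that of Ift52 in either blocking comparison. Bbs1 was at 0.26 (SE 0.26) and Wdr19 at 0.25 (SE 0.29). Below 0 were Ofd1 (-0.18, SE 0.24), Ift46 (-0.15, SE 0.17) and Tulp3 (-0.13, SE 0.17). No overlap was found for 4 genes below (11.1%, with 10.8% of all genes) and 3 above (8.33%, with 9.71%). Here too 14 of 14 dental epithelium genes were above 0 and 15 of 15 dental mesenchyme genes below (median -0.49). The mesenchyme list summed to 108433 and 72324 after 40-1a, against 108856 and 99137 after PBS, and the epithelium list to 68336 and 106142 after 40-1a, against 64752 and 77058 after PBS.

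Several cilium genes had more than 1 probe set above the filter, which gives a second reading of the same gene from the same RNA. There were 13 such genes with 34 probe sets. In 5E1 minus 40-1a all probe sets of a gene had 1 sign for 7 of the 13, and in cyclopamine minus PBS for 4. Many of the extreme readings lay on the array that stands apart. Of the 36 brightest probe sets 14 had their highest value on cyclopamine replicate 1 (38.9%, with 20.6% of all genes), and of the 21 other probe sets 8 had their lowest value there (38.1%, with 33.0% of such probe sets of all genes).

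Wdr35, an IFT-A subunit, shows the pattern. Its brightest probe set read 454 and 346 after cyclopamine, against 449 and 378 after PBS. The second read 56.0 and 310 after cyclopamine, against 270 and 282 after PBS, and the low value came from replicate 1. On that array the second probe set of Wdr19 read 63.9, that of Ttc21b 65.2 and one of Kif3b 97.0, while each read 151 or more on cyclopamine replicate 2. That of Wdr19 also read 65.3 on 5E1 replicate 1. Not all went this way: 3 of the 21 other probe sets had their highest value on cyclopamine replicate 1 (14.3%, with 12.5% for all genes). For Evc the second probe set read 134 and 251 after cyclopamine, against 170 and 221 after PBS, and so did not show the high value of the first. The part of RNA quality in these readings was not tested.

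**Figure D4:**
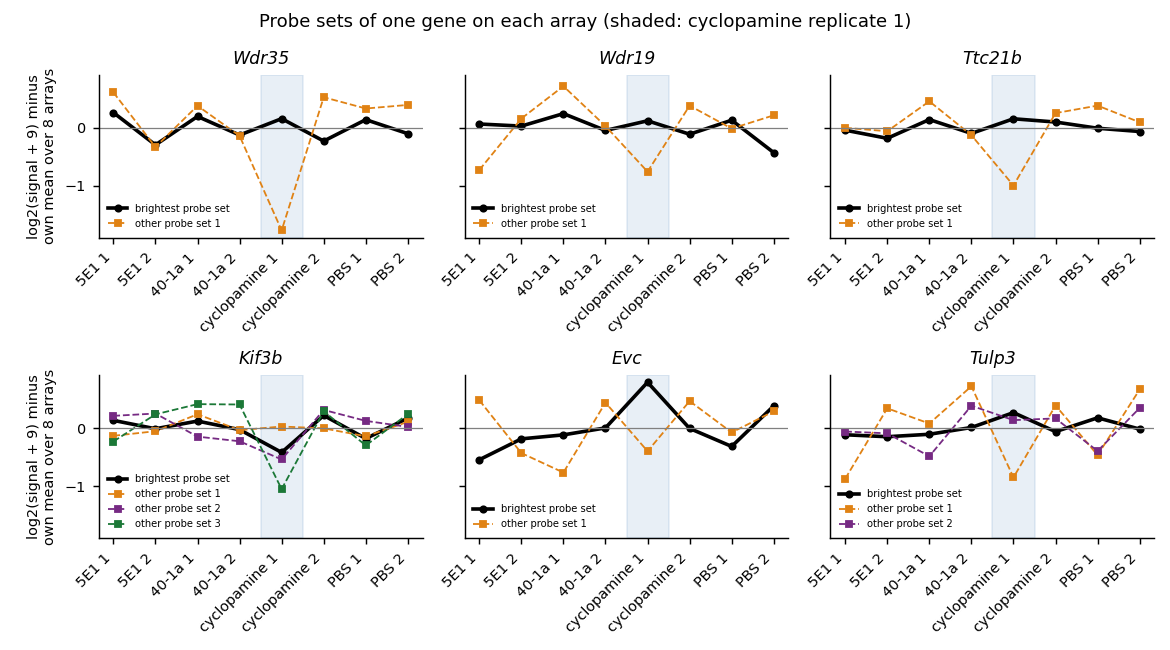
Each probe set above the filter of 6 cilium genes, as log2(signal + 9) minus its own mean over the 8 arrays; the solid black line is the brightest probe set, used for the gene, dashed lines are the others, and lines only join arrays. On the shaded array, cyclopamine replicate 1, the other probe sets of Wdr35 (56.0), Wdr19 (63.9) and Ttc21b (65.2) are low and their brightest ones are not. That of Wdr19 is also low on 5E1 replicate 1 (65.3).

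Beyond the 40 genes, 76 further cilium genes in 6 lists (other IFT and motor, BBSome, transition zone, basal body, cargo and lipid genes, and RFX factors) were looked up, and 66 were tested. After 5E1 27 were above 0 and 39 below relative to 40-1a, with a median of -0.02. After cyclopamine 31 were above and 35 below relative to PBS, with a median of -0.02, and 29 above and 37 below without cyclopamine replicate 1. In both comparisons 0 of the 66 passed and 0 were at an unadjusted p under 0.05. Of 17 motile cilium genes with a probe set, 4 were tested, the others lying below the filter, and the summed signal of these 4 ran from 391 to 461 after 5E1, 364 to 572 after 40-1a, 437 to 560 after cyclopamine and 474 to 667 after PBS.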

How the data were processed

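RNA of 8 samples in 4 groups was hybridised to Affymetrix mouse arrays, 1 array a sample. The authors deposited a linear intensity, or signal, for each probe set. The submitters' processing notes name MAS5. For its version, its scaling target and any hybridisation batch, nothing is given in the sources used here. The mean signal trimmed by 2% was 500.0 on every array, so arrays were not scaled again. For each gene the single-gene probe set with the highest mean was used, values were transformed to log2(signal + 9), and genes with a mean below the 40th percentile (log2 6.12) were removed. A fold change on this scale understates that of weakly detected genes. All 13008 genes were fitted with limma 3.58.1 in R 4.3.3 (4 group means over all 8 arrays, eBayes with trend), with Benjamini-Hochberg adjustment over all of them. The fit was run on simulated data with independent noise on each array, as a check of its estimates and intervals. Correlation between same-numbered arrays was not simulated, so that run does not show how well changed genes would be called here. Values are means ± SD or estimates with SE. The members and the gene lists were chosen with earlier results of these data known. Fold changes are named for the 6 genes with the smallest p in each direction in the main comparisons and 3 in the others; other members named as examples, and the further examples of probe sets, were chosen after their values were seen. Replicate numbers are shared by the groups, but the labels name no pairing, and they were not used as a block. The alternatives covered scaling, pseudocount, filter, variance model, probe set choice, block, samples fitted and each array left out, and the counts without overlap were repeated under alternatives chosen after seeing the data.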

Additional observations from a re-analysis of the deposited data

How the results depend on the processing

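Over 23 alternatives in each of 6 comparisons limma called 0 cilium genes, with a smallest adjusted p of 0.705. The counts of 0 at an unadjusted p under 0.05 are those of the main fit and did not hold under every alternative. Of 1101 alternative values for the 48 named differences, 1083 kept their sign. Many could not change it, since the variance model, the block and leaving out an array outside the comparison do not alter the estimate. Median centring moved the median of all genes to 0.15 for cyclopamine minus PBS and to 0.11 for the mean of both blocking agents minus that of both controls, and that of the cilium genes to 0.17 and 0.081. The replicate block, for numbers that the labels do not call paired, called 1 gene, Ptch1, in 5E1 minus 40-1a (limma adjusted p = 0.00519), in 5E1 minus PBS (0.00517) and in the pooled comparison (0.0306), and no cilium gene. The deviations of same-numbered arrays correlated at 0.32 to 0.59 in 5 of the 6 pairs of groups and at 0.00 for cyclopamine and PBS. A fit without the block counts shared deviations as error. Its lack of called genes therefore does not show that genes were unchanged. Leaving out cyclopamine replicate 1 and PBS replicate 2 together put the cilium median at -0.059 for cyclopamine minus PBS and at 0.071 for the antibody effect minus the cyclopamine effect. With each array left out in turn the cilium median ran from -0.082 to 0.16 for cyclopamine minus PBS and from -0.19 to 0.0064 for that difference of effects. For 5E1 minus 40-1a the left-out values ran from -0.032 to 0.44 for Ofd1, from -0.0090 to 0.25 for Ift27 and from -0.18 to 0.69 for Bbs4, each lowest without 5E1 replicate 2, and Bbs4 was at -0.11 without x and s probe sets. For cyclopamine minus PBS they ran from -0.039 to 0.76 for Evc and from -0.097 to 0.57 for Ift140, lowest without cyclopamine replicate 1. They ran from -0.41 to 0.023 for Ift80 and from -0.32 to 0.095 for Ofd1, highest without cyclopamine replicate 2, and from -0.61 to 0.35 for Cc2d2a, highest without PBS replicate 1. With median centring Ofd1 was at 0.014 and Ift88 at 0.040, and without the pair of arrays Arl3 was at -0.020. For 40-1a minus PBS they ran from -0.032 to 0.53 for Wdr19 and from -0.31 to 0.0038 for Ift46. Without PBS replicate 2, alone or with cyclopamine replicate 1, Wdr19 was at -0.032 and Ift46 at 0.0038. Tulp3 was at 0.049 there, and Ift57 at -0.062 in the difference of effects, with the mean of probe sets. The causes were not tested, and 2 arrays a group limit every estimate.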

Other observations

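Among the 66 further cilium genes tested, the one with the smallest p in each list stayed short of the threshold in both comparisons. Kif17, a second kinesin of the cilium, was at -0.52 (SE 0.53) for 5E1 minus 40-1a. Its signals were 45.6 and 156 after 5E1 and 169 and 94.6 after 40-1a, so the groups overlapped. The lowest, on 5E1 replicate 1, was below the filter level of 60.3. Nek8, a kinase of the inversin compartment, was at -0.31 (SE 0.27) in that comparison. Bbs12, a chaperonin-like protein that helps assemble the BBSome, was at 0.24 (SE 0.20), with 352 and 396 after 5E1 and 321 and 307 after 40-1a, without overlap. For cyclopamine minus PBS, Iqce, which anchors the Evc complex near the ciliary base, had signals of 582 and 483 after cyclopamine, against 271 and 469 after PBS (0.56, SE 0.28, limma unadjusted p = 0.0860). Ahi1, of the transition zone, had 532 and 297 after cyclopamine, against 294 and 246 after PBS (0.55, SE 0.30), and was at 0.14 without cyclopamine replicate 1, which holds its high value. Without that array Iqce was at 0.43. Wdr34, a dynein-2 intermediate chain, was at 0.59 (SE 0.36) and at 0.39 without it, and Cep135, a centriole protein, at -0.78 (SE 0.51) with PBS signals of 90.5 and 54.5. Cep135 was at -0.85 without that array. Of the 6 RFX factors 5 were tested. They lay between -0.28 and 0.10 for 5E1 minus 40-1a and between -0.04 and 0.27 for cyclopamine minus PBS. Rfx2 had 127 and 211 after cyclopamine, against 110 and 165 after PBS, and replicate 2 was the higher in all 4 groups. Its value of 0.62 without cyclopamine replicate 1 sets a replicate 2 array against PBS arrays of both numbers.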
